A study of Mus musculus with 9 samples.

Results

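The genes described here encode enzymes that write, erase or maintain 2 kinds of chemical mark on chromatin, histone acetylation and DNA methylation, together with core Polycomb proteins. There were 36 of them among the 18193 genes of the array, chosen by symbol. They comprised 11 zinc-dependent histone deacetylases, 7 sirtuins, 6 histone acetyltransferases, 4 genes of DNA methylation, 3 TET dioxygenases and 5 Polycomb genes. All 36 were measured, by 78 of the 34945 probe sets that named exactly 1 gene. A probe set is a group of short probes against 1 transcript, 14 of the genes had 1 probe set, and the other 22 had up to 6.

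RNA had been taken from the auditory nerve of adult CBA/CaJ mice of both sexes, aged 8 to 12 weeks, and from cells grown out of that nerve. The 3 tissue samples were dissected nerve with no treatment. The 3 cultured cell samples came from dissociated nerve grown to confluency over 5 to 7 days in medium with 10% serum and B27, and the 3 neurosphere samples were obtained by keeping such cultures for 12 more days in serum-free medium with EGF at 20 ng/ml, FGF at 10 ng/ml and heparin at 2 µg/ml. Expression was read on Affymetrix mouse arrays, 1 per sample, as log2 signals, so a difference of 1 is a doubling. Whether the replicate samples stem from different animals or dishes is not stated in the labels. A p-value given here thus speaks only to the variation among these 9 samples.

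Histone acetyltransferases add acetyl groups to lysines of histone tails, which loosens the contact of histones with DNA, and histone deacetylases and sirtuins take them off again. DNA methyltransferases place methyl groups on cytosines next to guanines, Uhrf1 brings the maintenance enzyme Dnmt1 to newly copied DNA, and TET enzymes oxidise the methyl group as a step toward its removal. Polycomb repressive complexes methylate and ubiquitinate histones at silenced genes. In nerve, these enzymes are known for roles in the proliferation and myelination of glia.

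The probe set of highest average signal stood for each gene. A gene counted as passed when limma's adjusted p was under 0.05 and the difference exceeded 1.5-fold, which is 0.585 on the log2 scale. In cultured cells against tissue 6 of the 36 genes rose and 11 fell, where 20.4% of all genes rose and 22.0% fell. In neurospheres against tissue 8 rose and 9 fell, where 21.7% of all genes rose and 21.0% fell. In neurospheres against cultured cells 4 rose and 7 fell, which is 11.1% and 19.4% of the set, where 9.0% of all genes rose and 8.91% fell. Against tissue the genes passed the test about as often as all genes did. All genes include the dimmest 40%, whereas 34 of the 36 were brighter than that. Without the dimmest 40%, 10916 genes remained. Of these 3283 rose and 2667 fell in cultured cells, and 3401 rose and 2540 fell in neurospheres, against tissue. These are larger shares than over all genes. The median log2 difference of the 36 was -0.02, -0.17 and -0.07 in the 3 comparisons against -0.01, 0.05 and 0.05 over all genes. Every pair of comparisons shares the 3 arrays of a group, so their values are given side by side. In whole samples, a change in the number of cells of a type and a change in RNA per cell cannot be told apart.

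**Figure D1:**
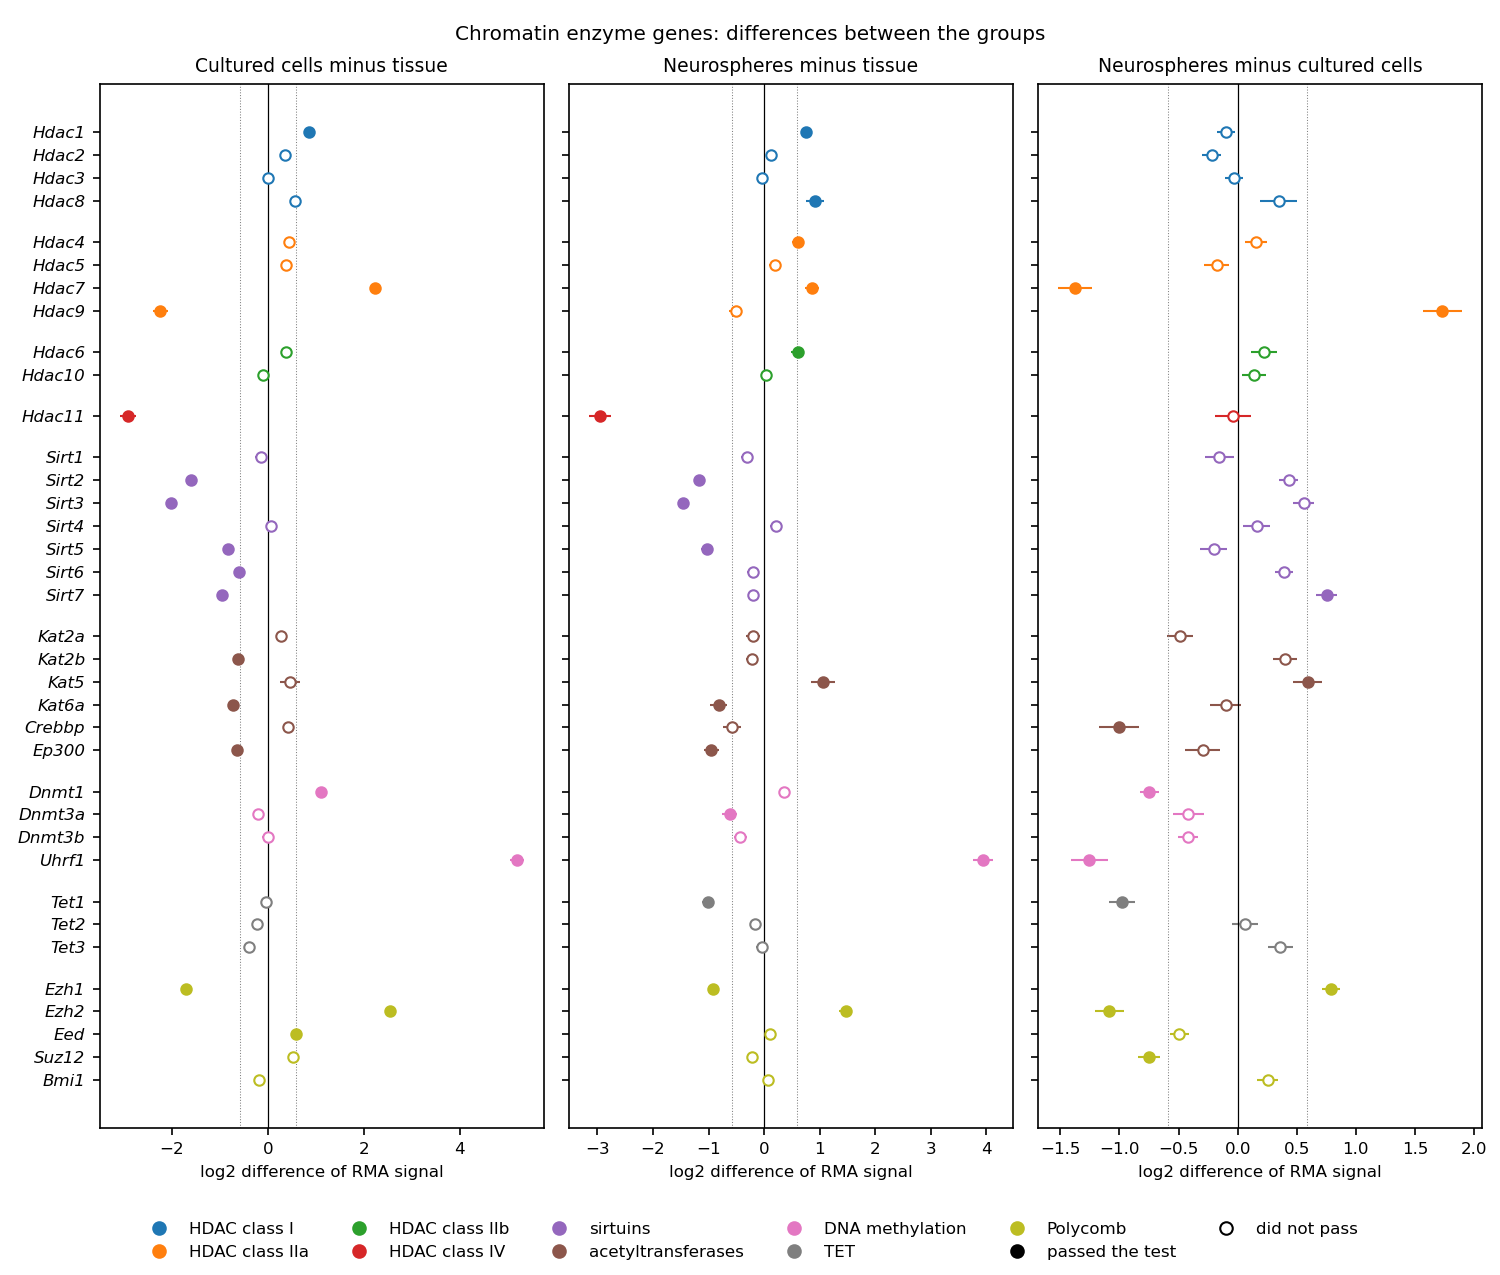
Log2 difference of the RMA signal for each of the 36 genes (rows, coloured by enzyme class) in the 3 comparisons (panels, with different horizontal scales). Points are estimates and bars are standard errors from limma on 3 arrays per group, filled points passed the test, and dotted lines mark the 1.5-fold limit. Uhrf1 at 5.19 and Hdac11 at -2.92 lie farthest out between cultured cells and tissue, and most sirtuins lie to the left of 0 there.

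Uhrf1 and Ezh2 rose by 1 or more on the log2 scale in both cultures against tissue, and Hdac11, Sirt2 and Sirt3 fell by 1 or more in both. The sequences around the start sites of these genes are shown because they carry the largest changes shared by the cultures. That of Dnmt1, the partner of Uhrf1, was added after its values were seen. Each window runs from 250 bases before to 50 bases after a start site, in RefSeq's annotation of GRCm38.p6. Capitals mark 2 motifs, each sought on both strands and chosen after the values were seen. They are the letters TTTCCCGC, TTTGGCGC, TTTGCCGC or TTTCGCGC, which fit the site of the cell cycle factors of the E2F family, and CCAAT, the box bound by NF-Y. Matches that overlap are counted singly.
Uhrf1, chr17:56304063-56304362, plus strand: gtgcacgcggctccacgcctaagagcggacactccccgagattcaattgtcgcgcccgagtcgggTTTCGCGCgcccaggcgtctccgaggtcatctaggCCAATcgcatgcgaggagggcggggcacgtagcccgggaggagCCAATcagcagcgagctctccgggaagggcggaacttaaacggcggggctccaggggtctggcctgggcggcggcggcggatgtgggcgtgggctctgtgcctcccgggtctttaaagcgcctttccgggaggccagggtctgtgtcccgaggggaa
Ezh2, chr6:47594981-47595280, minus strand: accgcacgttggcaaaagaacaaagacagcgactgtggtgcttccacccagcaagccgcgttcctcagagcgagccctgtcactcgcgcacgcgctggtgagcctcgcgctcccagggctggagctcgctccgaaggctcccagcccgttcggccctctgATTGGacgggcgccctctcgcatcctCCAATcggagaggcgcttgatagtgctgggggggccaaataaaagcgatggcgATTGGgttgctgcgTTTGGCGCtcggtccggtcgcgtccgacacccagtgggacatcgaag
Dnmt1, chr9:20952574-20952873, minus strand: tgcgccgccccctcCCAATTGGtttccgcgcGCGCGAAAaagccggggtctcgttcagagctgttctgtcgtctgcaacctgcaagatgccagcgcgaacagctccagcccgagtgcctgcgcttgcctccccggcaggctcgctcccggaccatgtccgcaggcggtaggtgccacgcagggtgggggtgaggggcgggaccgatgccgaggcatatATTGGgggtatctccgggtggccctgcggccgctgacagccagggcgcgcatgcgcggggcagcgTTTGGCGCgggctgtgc
Hdac11, chr6:91156565-91156864, plus strand: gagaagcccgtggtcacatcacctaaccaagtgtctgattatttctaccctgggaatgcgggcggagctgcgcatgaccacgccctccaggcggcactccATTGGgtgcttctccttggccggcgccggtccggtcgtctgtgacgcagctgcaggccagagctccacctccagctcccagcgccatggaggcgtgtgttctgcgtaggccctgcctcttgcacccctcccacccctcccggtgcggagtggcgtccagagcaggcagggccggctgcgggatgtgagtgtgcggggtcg
Sirt2, chr7:28766502-28766801, plus strand: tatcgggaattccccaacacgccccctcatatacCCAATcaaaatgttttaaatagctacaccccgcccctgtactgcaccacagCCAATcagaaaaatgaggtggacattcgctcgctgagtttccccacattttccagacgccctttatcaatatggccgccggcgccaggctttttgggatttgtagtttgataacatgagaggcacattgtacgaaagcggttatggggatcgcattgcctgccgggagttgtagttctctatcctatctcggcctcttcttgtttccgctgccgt
Sirt3, chr7:140881820-140882119, minus strand: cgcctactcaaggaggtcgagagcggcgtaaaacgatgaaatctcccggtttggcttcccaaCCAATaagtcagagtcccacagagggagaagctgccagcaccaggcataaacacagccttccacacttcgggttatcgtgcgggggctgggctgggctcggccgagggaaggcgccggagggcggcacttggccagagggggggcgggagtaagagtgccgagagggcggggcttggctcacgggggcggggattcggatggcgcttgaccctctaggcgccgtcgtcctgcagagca

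The table has 2 windows for Uhrf1, 3 for Dnmt1 and 2 for Sirt3. Of these the window with the most E2F matches is printed and, where they tied, that with the most CpG pairs, so the matches and CpG counts of the printed windows are partly set by this choice. The printed windows of Uhrf1 and Ezh2 each held 1 match to the E2F letters and that of Dnmt1 held 2, whereas the other window of Uhrf1 and the other 2 of Dnmt1 held 0. Of the 32851 windows of all genes 2.26% held an E2F match, as did 6 of the 45 windows of the set (13.3%), 1 each of Uhrf1, Ezh2, Dnmt1, Suz12, Kat2a and Sirt4. The CCAAT letters were in 37.4% of all windows and in 18 of the 45. The printed windows held 16 to 33 CpG pairs, where the median over all windows was 7, and the windows not printed held 12 (Uhrf1), 2 and 12 (Dnmt1) and 23 (Sirt3). A match is a description of the letters, not a bound site or a cause. Hdac1, Hdac3, Hdac10 and Kat6a were not matched to a window.

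Uhrf1, which recognises hemimethylated DNA behind the replication fork and recruits Dnmt1, showed the largest change of the set. Its signal was 5.42, 4.92 and 5.22 (log2) on the tissue arrays, 10.32, 10.56 and 10.26 on the cultured cell arrays, and 9.41, 8.82 and 9.15 on the neurosphere arrays. The 3 groups did not overlap, with tissue lowest and cultured cells highest. Uhrf1 rose in cultured cells (log2 difference 5.19, SE 0.14, adjusted p = 1.21e-09) and in neurospheres (3.94, SE 0.17, adjusted p = 1.46e-07) against tissue. The tissue signals lay below 6.48, the level under which the dimmest 40% of genes fall, and cannot be told from background without detection calls, so the differences are those of the signals and no fold of the transcript is given. It fell from cultured cells to neurospheres (-1.25, SE 0.16, adjusted p = 4.16e-04). Its other probe set gave 3.40, 2.00 and -1.40 in these comparisons and passed in each.

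Dnmt1, the maintenance DNA methyltransferase, followed the same order at a smaller scale. Signals were 9.31, 9.29 and 9.39 in tissue, 10.50, 10.38 and 10.43 in cultured cells, and 9.74, 9.62 and 9.70 in neurospheres, and no groups overlapped. Dnmt1 rose 2.16-fold in cultured cells against tissue (1.11, SE 0.08, adjusted p = 1.35e-06) and fell from cultured cells to neurospheres (-0.75, SE 0.08, adjusted p = 1.92e-04). Against tissue the neurospheres were 0.36 higher (SE 0.08, adjusted p = 0.00496), which is under the 1.5-fold limit. The 2 further probe sets of Dnmt1 also rose in cultured cells (0.92 and 0.66) and fell in neurospheres against cultured cells (-0.99 and -0.89), and gave -0.07 and -0.23 in neurospheres against tissue.

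Dnmt3a and Dnmt3b are the de novo methyltransferases, which methylate unmarked DNA. Dnmt3a was at 9.73, 9.81 and 9.79 in tissue, 9.59, 9.52 and 9.63 in cultured cells, and 9.08, 9.46 and 8.95 in neurospheres. The neurosphere arrays lay below both other groups and spread the most, and Dnmt3a fell 1.53-fold against tissue (-0.62, SE 0.13, adjusted p = 0.00334). Without neurosphere array 1 or 3 the difference was -0.57 or -0.51, with the mean of the probe sets it was -0.43, and none of these passed. Dnmt3b was at 7.21, 6.88 and 6.90 in tissue, 7.02, 7.02 and 6.93 in cultured cells, and 6.46, 6.67 and 6.59 in neurospheres. The neurospheres were again lowest, but differences of -0.43 from tissue (adjusted p = 0.0107) and -0.42 from cultured cells (adjusted p = 0.00623) were under 1.5-fold.

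Dnmt3a had 5 probe sets, and they disagreed. Against tissue in cultured cells, probe sets 1423064_at (1.21) and 1423066_at (1.14) rose, 1460324_at (-1.26) fell, and 1423063_at (-0.20) and 1423065_at (-0.20) did not pass. In neurospheres against tissue 1460324_at (-1.37), 1423065_at (-0.94) and 1423063_at (-0.62) fell, and 1423064_at (0.49) and 1423066_at (0.29) did not pass. In neurospheres against cultured cells none rose, and 1423066_at (-0.85), 1423065_at (-0.74) and 1423064_at (-0.72) fell. A direction for Dnmt3a in cultured cells against tissue therefore depended on the probe set.

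Of the TET enzymes, Tet1 was lower in neurospheres. It was at 7.98, 7.95 and 8.09 in tissue, 8.13, 7.90 and 7.90 in cultured cells, and 6.96, 7.17 and 6.87 in neurospheres. Tissue and cultured cells overlapped, and every neurosphere array lay below both. Tet1 fell 2.01-fold against tissue (-1.01, SE 0.10, adjusted p = 3.08e-05) and 1.97-fold against cultured cells (-0.98, SE 0.11, adjusted p = 2.47e-04), and it was the only gene of the set to fall against both, where 3.83% of all genes did. A second probe set gave -1.58 and -1.24 and passed in both, a further one gave -0.58 and -0.59 and passed only against cultured cells, and the dimmest gave 0.14 and 0.09. Tet2 and Tet3 passed in no comparison, with differences from -0.40 to 0.36.

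**Figure D2:**
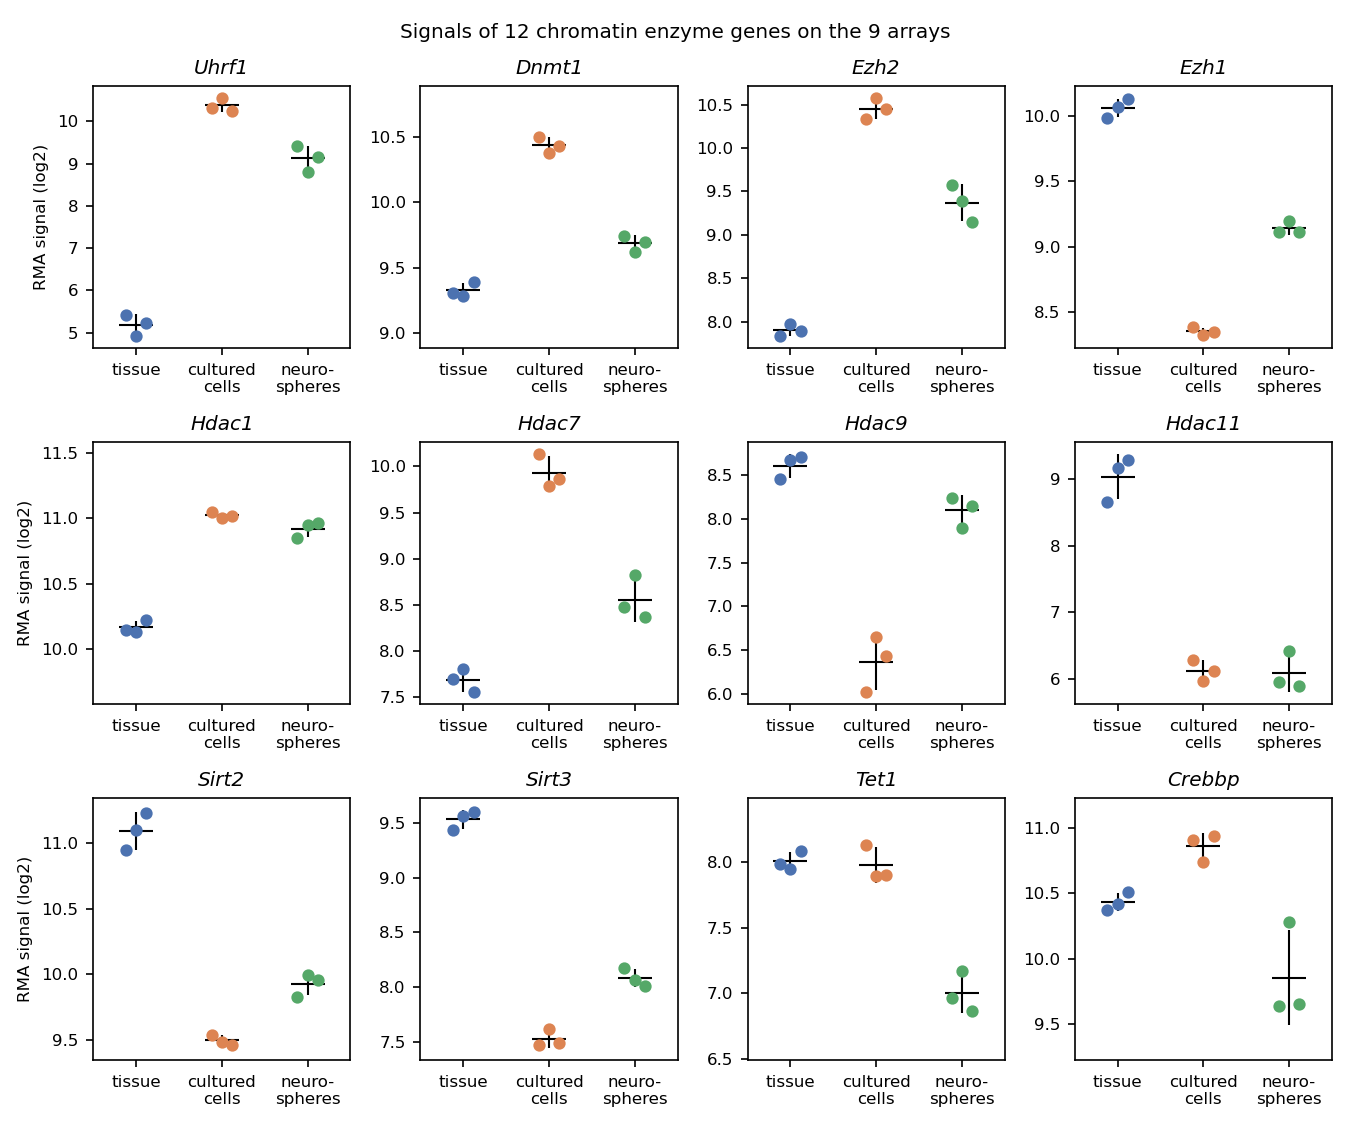
Log2 RMA signal of 12 genes on each array (points), with the mean (horizontal bar) and SD (vertical bar) of the 3 arrays of a group, and with a separate vertical scale for each gene. Uhrf1, Dnmt1, Ezh2 and Hdac7 are highest in cultured cells, Ezh1 and Hdac9 are lowest there, Hdac11 is near 6 in both cultures, and Tet1 is lowest in neurospheres.

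The paired histone methyltransferases of Polycomb repressive complex 2 moved in opposite directions. Ezh2, the catalytic subunit that prevails in dividing cells, was at 7.84, 7.97 and 7.89 in tissue, 10.34, 10.58 and 10.45 in cultured cells, and 9.57, 9.39 and 9.15 in neurospheres. Ezh1, its alternative in resting cells, was at 9.98, 10.07 and 10.13 in tissue, 8.39, 8.33 and 8.35 in cultured cells, and 9.11, 9.20 and 9.11 in neurospheres. For both genes the groups did not overlap and the neurospheres lay between tissue and cultured cells.

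Ezh2 rose 5.87-fold in cultured cells (2.55, SE 0.09, adjusted p = 8.62e-09) and 2.77-fold in neurospheres (1.47, SE 0.12, adjusted p = 6.53e-06) against tissue. Ezh1 fell by 1.70 (SE 0.08, adjusted p = 5.74e-08) and by 0.92 (SE 0.08, adjusted p = 1.61e-05) in the same comparisons. From cultured cells to neurospheres Ezh2 fell (-1.09, SE 0.12, adjusted p = 2.52e-04) and Ezh1 rose (0.79, SE 0.08, adjusted p = 1.09e-04). Ezh2 had 1 probe set. Ezh1 had 4, of which 3 fell in both comparisons with tissue, and only the brightest passed between the cultures, where the others gave 0.36, 0.24 and 0.07.

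Eed and Suz12, the non-catalytic core subunits of the same complex, were highest in cultured cells. Eed was at 9.93, 9.91 and 10.04 in tissue, 10.50, 10.65 and 10.51 in cultured cells, and 10.02, 10.10 and 10.06 in neurospheres, and rose 1.51-fold in cultured cells (0.59, SE 0.09, adjusted p = 1.82e-04). That value lies at the limit, and without tissue array 1, tissue array 2 or cultured cell array 2 it was 0.58, 0.57 or 0.55. The call also ended when arrays were centred on the more highly expressed genes (0.51) and under quantile normalization (0.56). A dim second probe set of Eed, 1453830_at, fell from 4.72 ± 0.37 (SD, n = 3) to 4.05 ± 0.08 in the same comparison (-0.67).

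Suz12 on its brightest probe set was at 10.21, 10.17 and 10.19 in tissue, 10.63, 10.76 and 10.77 in cultured cells, and 9.83, 10.02 and 10.05 in neurospheres. It was 0.53 higher in cultured cells than in tissue (adjusted p = 2.57e-04), under the fold limit, and fell from cultured cells to neurospheres (-0.75, SE 0.09, adjusted p = 4.12e-04). Of its 6 probe sets, 1452364_at (2.12 and 1.39) and 1427253_s_at (1.72 and 1.06) rose in cultured cells and in neurospheres against tissue, and in neurospheres the brightest gave -0.22. The other 3 were not called. Bmi1, a subunit of Polycomb repressive complex 1, passed in no comparison on its brightest probe set (from -0.19 to 0.25), and its other probe set rose against tissue in both cultures (0.65 and 0.64).

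Among the 11 zinc-dependent deacetylases, 2 rose and 2 fell in cultured cells against tissue, and 5 rose and 1 fell in neurospheres against tissue. In neurospheres against cultured cells 1 rose and 1 fell. Over all genes 20.4% rose and 22.0% fell, 21.7% rose and 21.0% fell, and 9.0% rose and 8.91% fell in these comparisons. The median log2 difference of the 11 was 0.38, 0.20 and -0.03. Class I holds the nuclear enzymes Hdac1, Hdac2, Hdac3 and Hdac8, of which the first 3 work in corepressor complexes. Hdac1 was at 10.15, 10.13 and 10.22 in tissue, 11.05, 11.004 and 11.01 in cultured cells, and 10.85, 10.95 and 10.96 in neurospheres. Tissue lay below both cultures, and Hdac1 rose 1.81-fold in cultured cells (0.85, SE 0.08, adjusted p = 6.52e-06) and 1.69-fold in neurospheres (0.75, SE 0.08, adjusted p = 5.27e-05). The cultures differed by -0.10 (adjusted p = 0.361).

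Hdac2, the close relative of Hdac1 in the same complexes, was at 11.39, 11.28 and 11.51 in tissue, 11.65, 11.79 and 11.80 in cultured cells, and 11.53, 11.48 and 11.56 in neurospheres on its brightest probe set. Cultured cells were 0.35 higher than tissue (SE 0.09, adjusted p = 0.00818), which did not reach 1.5-fold, and neurospheres overlapped tissue (0.13, SE 0.09, adjusted p = 0.256). Its probe set 1449080_at did pass (1.16 and 0.82), at 9.76 ± 0.26 (SD, n = 3) in tissue against 10.92 ± 0.23 in cultured cells and 10.58 ± 0.05 in neurospheres. The third gave -0.14 and -0.28 and was not called. The call for Hdac2 thus depended on the probe set, whereas Hdac1 had only 1.

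Hdac3 stayed between 10.24 and 10.39 on all 9 arrays, with differences of 0.00, -0.03 and -0.03. Hdac8 was at 3.96, 3.86 and 3.70 in tissue, 4.55, 4.32 and 4.37 in cultured cells, and 5.09, 4.44 and 4.75 in neurospheres, among the dimmest genes of the array (percentile 14.6 of mean signal). It rose in neurospheres against tissue (0.92, SE 0.16, adjusted p = 9.09e-04). The table gives no detection calls, so a value this low cannot be told from background here.

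The class IIa deacetylases shuttle between cytoplasm and nucleus and repress MEF2 target genes, and Hdac7 and Hdac9 differed most. Hdac7 was at 7.70, 7.81 and 7.56 in tissue, 10.13, 9.79 and 9.87 in cultured cells, and 8.48, 8.82 and 8.37 in neurospheres. Hdac9 was at 8.45, 8.67 and 8.70 in tissue, 6.02, 6.65 and 6.43 in cultured cells, and 8.24, 7.90 and 8.15 in neurospheres. Cultured cells were the highest group for Hdac7 and the lowest for Hdac9, and no groups overlapped in either gene.

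Hdac7 rose 4.72-fold in cultured cells (2.24, SE 0.11, adjusted p = 9.14e-08) and 1.82-fold in neurospheres (0.86, SE 0.13, adjusted p = 4.23e-04) against tissue. Hdac9 fell by 2.24 in cultured cells (SE 0.15, adjusted p = 7.66e-07), and in neurospheres the difference of -0.51 (SE 0.12, adjusted p = 0.0049) was under 1.5-fold. From cultured cells to neurospheres Hdac7 fell (-1.38, SE 0.14, adjusted p = 1.51e-04) and Hdac9 rose (1.73, SE 0.16, adjusted p = 9.89e-05). The cultured cell mean of Hdac9 (6.36) lay below 6.48, so its fall and rise are differences of the signals. The second probe set of Hdac7 rose against tissue in both cultures (1.22 and 0.75) but did not pass between them (-0.46, adjusted p = 0.0168), and that of Hdac9, near 4 in every group, was not called.

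The other class IIa genes moved less. Hdac4 was at 7.14, 7.28 and 7.07 in tissue and 7.64, 7.81 and 7.86 in neurospheres, 1.53-fold higher (0.61, SE 0.10, adjusted p = 6.58e-04), and without tissue array 3 or neurosphere array 3 it was 0.56 and did not pass. Its probe set 1454693_at, of similar brightness, gave 0.39 there and was not called, and the dimmer 1447566_at gave 1.04 and passed. The call for Hdac4 thus depended on the probe set. Hdac5 passed in no comparison, with values of 0.38, 0.20 and -0.18. In class IIb, Hdac6, a cytoplasmic deacetylase of tubulin, rose 1.52-fold in neurospheres against tissue (0.61, SE 0.11, adjusted p = 0.00149), and without tissue array 3 or neurosphere array 2 it gave 0.55 or 0.52 and did not pass. Centring the arrays on the more highly expressed genes also ended the calls of Hdac4 (0.51) and Hdac6 (0.51). Hdac10, a polyamine deacetylase, passed in none (-0.10, 0.04 and 0.14).

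Hdac11, the sole class IV enzyme, had the largest fall of the set. Its signal was 8.65, 9.18 and 9.29 in tissue, 6.28, 5.97 and 6.12 in cultured cells, and 5.95, 6.42 and 5.89 in neurospheres. The cultures overlapped each other and lay far below tissue. Hdac11 fell by 2.92 in cultured cells (SE 0.16, adjusted p = 1.81e-07) and by 2.95 in neurospheres (SE 0.19, adjusted p = 1.80e-06). The signals of both cultures lay below 6.48, among the dimmest 40% of genes, so no fold is given here either. The second probe set fell by 2.56 and 2.68, and the cultures did not pass against each other on either (-0.04 and -0.12).

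The sirtuins, which use NAD as a cosubstrate, were the class with the most falls in cultured cells. Of the 7, 5 fell in cultured cells against tissue (median -0.83), 3 fell in neurospheres against tissue (median -0.30) and 1 rose in neurospheres against cultured cells (median 0.39). Over all genes 22.0% and 21.0% fell in the comparisons with tissue, and 9.0% rose between the cultures. In the comparisons with tissue 0 rose by limma, also at an unadjusted p under 0.05 with no fold limit, and 0 by the methods' t-test. Sirt2, a tubulin and histone deacetylase that is abundant in myelinating glia, was at 10.95, 11.10 and 11.23 in tissue, 9.54, 9.49 and 9.46 in cultured cells, and 9.83, 9.99 and 9.96 in neurospheres. Sirt3, the main mitochondrial deacetylase, was at 9.44, 9.57 and 9.60 in tissue, 7.47, 7.62 and 7.49 in cultured cells, and 8.17, 8.06 and 8.01 in neurospheres. For both, tissue was highest, neurospheres were intermediate and no groups overlapped.

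Sirt2 fell by 1.60 in cultured cells (SE 0.09, adjusted p = 2.78e-07) and by 1.17 in neurospheres (SE 0.10, adjusted p = 1.16e-05). Sirt3 fell by 2.01 in cultured cells (SE 0.09, adjusted p = 3.13e-08) and by 1.45 in neurospheres (SE 0.09, adjusted p = 1.29e-06). The neurospheres stood above the cultured cells by 0.43 for Sirt2 (adjusted p = 0.00396) and 0.56 for Sirt3 (adjusted p = 0.0014), both under the fold limit. Each gene had 1 probe set.

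Sirt5, a mitochondrial enzyme that removes succinyl and malonyl groups, was at 8.69, 8.74 and 8.69 in tissue, 7.81, 8.03 and 7.80 in cultured cells, and 7.80, 7.75 and 7.48 in neurospheres. It fell by 0.83 in cultured cells (SE 0.09, adjusted p = 2.63e-05) and by 1.03 in neurospheres (SE 0.10, adjusted p = 2.85e-05). Its other probe sets gave -0.36 and -0.08 in cultured cells and -0.53 and 0.06 in neurospheres, none past the limit. The mean of its probe sets was -0.42 and -0.50, which also did not pass.

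Sirt7, a nucleolar deacetylase, was at 9.80, 9.71 and 9.53 in tissue, 8.76, 8.79 and 8.65 in cultured cells, and 9.61, 9.47 and 9.38 in neurospheres. Tissue and neurospheres overlapped, and cultured cells lay below both. Sirt7 fell by 0.95 from tissue to cultured cells (SE 0.10, adjusted p = 1.40e-05) and rose 1.69-fold from cultured cells to neurospheres (0.75, SE 0.09, adjusted p = 3.48e-04). Sirt6, a chromatin deacetylase with a role in DNA repair, fell in cultured cells (-0.59, SE 0.11, adjusted p = 7.48e-04), to a mean of 6.19, which lay below 6.48. That call ended without tissue array 1 (-0.50) or cultured cell array 3 (-0.58) and under quantile normalization (-0.26). Sirt1, the nuclear relative of yeast Sir2, ran from -0.30 to -0.15 and Sirt4, a mitochondrial member, from 0.06 to 0.22, and both passed in no comparison.

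Of the 6 acetyltransferases, 3 fell in cultured cells against tissue, 2 fell and 1 rose in neurospheres against tissue, and 1 rose and 1 fell in neurospheres against cultured cells, with medians of -0.17, -0.40 and -0.20. Over all genes 22.0% fell in cultured cells, 21.7% rose and 21.0% fell in neurospheres, and 9.0% rose and 8.91% fell between the cultures. The counts of acetyltransferases depended on the probe set. With the mean of each gene's probe sets, 3 rose and 1 fell in cultured cells against tissue, since Kat2a (0.91), Kat5 (0.89) and Crebbp (0.67) passed upward and Kat2b (0.0057) and Kat6a (-0.0014) lost their falls. Kat5 also rose there under quantile normalization (0.60, adjusted p = 0.0376) and without tissue array 3 (0.63). The paralogs Crebbp and Ep300, coactivators that acetylate histones at enhancers, were not called in the same comparisons on their brightest probe sets. Crebbp was at 10.37, 10.42 and 10.51 in tissue, 10.90, 10.74 and 10.93 in cultured cells, and 9.64, 10.28 and 9.65 in neurospheres. Ep300 was at 10.49, 10.48 and 10.58 in tissue, 9.78, 9.79 and 10.03 in cultured cells, and 9.34, 9.89 and 9.48 in neurospheres. Neurosphere array 2 was the highest of its group for both genes.

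Ep300 fell against tissue, by 0.65 in cultured cells (SE 0.10, adjusted p = 1.87e-04) and by 0.95 in neurospheres (SE 0.14, adjusted p = 3.32e-04). Crebbp did not pass in either, at 0.43 (SE 0.09, adjusted p = 0.00202) and -0.58 (SE 0.17, adjusted p = 0.015). It fell from cultured cells to neurospheres (-1.003, SE 0.17, adjusted p = 0.00224), where Ep300 gave -0.30 (SE 0.15, adjusted p = 0.165). The value of Crebbp in neurospheres against tissue lay near the limit. It passed as a fall without neurosphere array 2 (-0.79), tissue array 1 (-0.61) or tissue array 2 (-0.59), after arrays were centred on the brighter genes (-0.67) and under quantile normalization (-0.62). On 2 further probe sets Crebbp rose in cultured cells against tissue (1.55 and 1.15) and fell in neurospheres against cultured cells (-1.14 and -0.64). Its remaining probe set, 1434633_at, fell in neurospheres against tissue (-0.69, adjusted p = 0.00225) and gave -0.44 in cultured cells against tissue and -0.25 between the cultures. Ep300 had 1 probe set.

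Kat2a and Kat2b (GCN5 and PCAF) are the paralogous catalytic subunits of the SAGA and ATAC coactivator complexes. Kat2a was at 9.18, 8.98 and 8.96 in tissue, 9.31, 9.36 and 9.31 in cultured cells, and 8.76, 9.07 and 8.69 in neurospheres, and passed in no comparison (0.28, -0.20 and -0.48). Its dimmer probe set 1422972_s_at rose against tissue in both cultures (1.90 and 1.24) and fell between them (-0.66). Kat2b was at 11.78, 11.73 and 11.87 in tissue, 11.25, 11.06 and 11.21 in cultured cells, and 11.42, 11.71 and 11.58 in neurospheres. It fell by 0.62 in cultured cells (SE 0.09, adjusted p = 1.57e-04), and without tissue array 3 or cultured cell array 2 the difference was -0.58 or -0.57 and did not pass.

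The 3 probe sets of Kat2b were called in opposite directions against tissue. In cultured cells 1434037_s_at (-0.62) and 1457809_at (-1.03) fell and 1450821_at (1.67) rose. In neurospheres 1457809_at (-0.73) fell, 1450821_at (2.10) rose and 1434037_s_at (-0.22) did not pass. In neurospheres against cultured cells they gave 0.40, 0.31 and 0.43, all positive and none called.

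Kat5 (TIP60), the acetyltransferase of the NuA4 complex, was at 7.05, 7.83 and 7.93 in tissue, 8.27, 8.00 and 7.93 in cultured cells, and 8.85, 8.53 and 8.61 in neurospheres. Tissue array 1 was the lowest of the 9, and the neurospheres lay above both other groups. Kat5 rose 2.08-fold in neurospheres against tissue (1.05, SE 0.22, adjusted p = 0.00252) and 1.51-fold against cultured cells (0.59, SE 0.12, adjusted p = 0.00607), and was the only gene of the set to rise against both, where 5.05% of all genes did. The second rise lay at the limit, and without cultured cell array 2 or 3 or neurosphere array 1 it was 0.56, 0.52 or 0.50. It also ended after arrays were centred on the brighter genes (0.58) and under quantile normalization (0.55). Its other probe set passed in all 3 comparisons (1.31, 1.96 and 0.65).

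Kat6a (MOZ) was at 10.08, 9.75 and 9.66 in tissue, 9.17, 9.01 and 9.15 in cultured cells, and 8.85, 9.30 and 8.88 in neurospheres. It fell by 0.72 in cultured cells (SE 0.12, adjusted p = 4.52e-04) and by 0.82 in neurospheres (SE 0.16, adjusted p = 0.00153) on probe set 1436315_at. Probe set 1437487_at rose in cultured cells (0.95, against 0.46 in neurospheres), and 1446405_at gave -0.24 and -0.50 with no call. The mean of its 3 probe sets gave -0.0014 in cultured cells and -0.28 in neurospheres and passed in neither.

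Over all 78 probe sets, 22 rose and 17 fell in cultured cells against tissue, where 21.7% and 18.9% of the 45037 probe sets did. In neurospheres against tissue 18 rose and 17 fell, against 21.2% and 18.5%. In neurospheres against cultured cells 5 rose and 20 fell, which is 6.41% and 25.6% of the 78, where 7.44% and 9.62% of all probe sets did. Probe sets of 1 gene are repeated readings of it, so these are not shares of independent genes. The falls all came from Crebbp, Dnmt1, Dnmt3a, Tet1, Suz12, Uhrf1, Hdac7, Kat2a and Ezh2, most of them with several probe sets called. Among the 22 genes with several probe sets, opposite calls occurred in cultured cells against tissue for Kat2b, Kat6a, Dnmt3a and Eed and in neurospheres against tissue for Kat2b. None occurred in neurospheres against cultured cells, where 11 of the 22 genes had at least 1 probe set called.

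**Figure D3:**
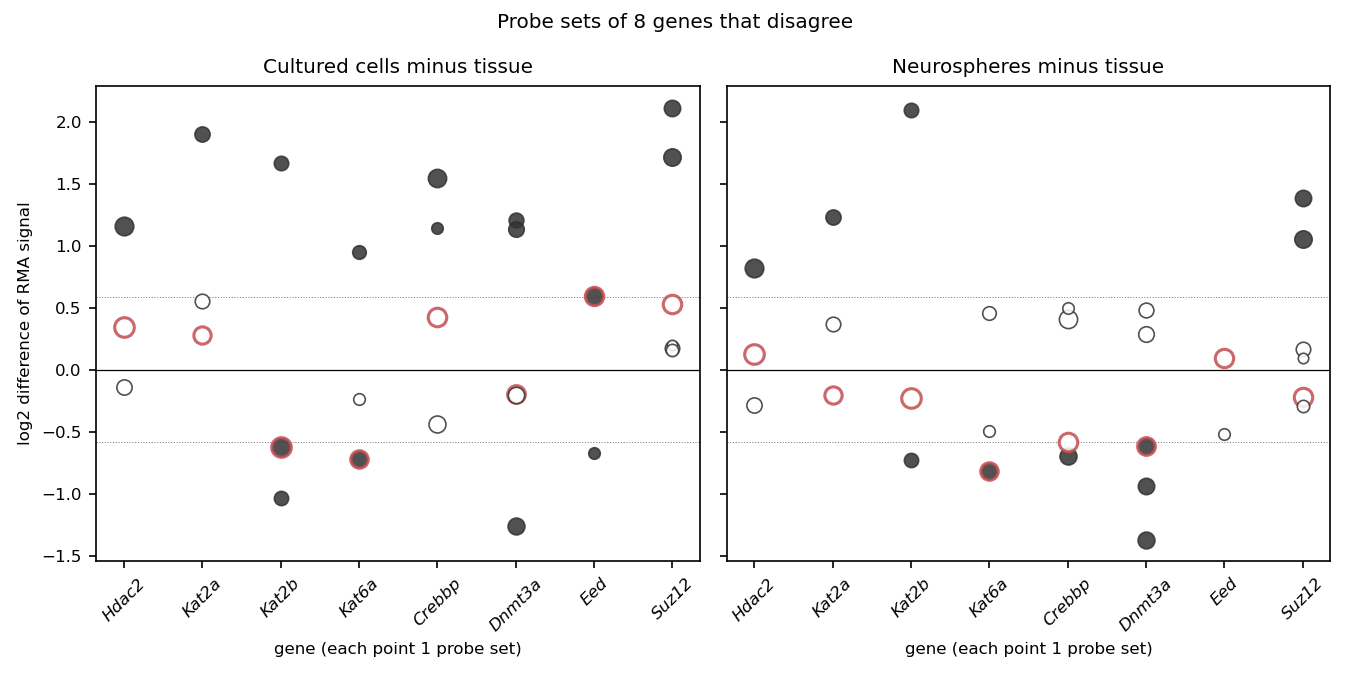
Log2 difference from tissue for every probe set (points) of 8 genes whose probe sets disagree, in cultured cells (left) and neurospheres (right). Filled points passed limma's test, larger points have a higher mean signal, a red ring marks the probe set used for the gene, and dotted lines mark the 1.5-fold limit. For Kat2b the probe sets run from -1.03 to 1.67 in cultured cells and from -0.73 to 2.10 in neurospheres.

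The tissue arrays stood apart in RNA integrity as the arrays measure it. The signal of the actin control at the 3′ end exceeded that at the 5′ end by 2.38 to 3.07 (log2) on the tissue arrays, by 0.33 to 0.40 on the cultured cell arrays and by 0.54 to 0.83 on the neurosphere arrays, and the GAPDH control showed the same order. This gap and the group cannot be told apart in the comparisons with tissue. The part of the gap in the disagreement of probe sets was not tested, and positions of the probe sets along their transcripts were not used here.

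Grouped by their pattern, 4 genes rose in both cultures (Hdac1, Hdac7, Uhrf1 and Ezh2, 11.1% against 15.8% of all genes) and 7 fell in both (Hdac11, Sirt2, Sirt3, Sirt5, Kat6a, Ep300 and Ezh1, 19.4% against 17.6%). Hdac7, Dnmt1, Uhrf1 and Ezh2 rose from tissue to cultured cells and fell from there to neurospheres (4 genes, 11.1% against 4.91%). Hdac9, Sirt7 and Ezh1 fell and then rose (3 genes, 8.33% against 3.52%). Hdac2, Hdac3, Hdac5, Hdac10, Sirt1, Sirt4, Kat2a, Dnmt3b, Tet2, Tet3 and Bmi1 passed in no comparison (11 genes, 30.6% against 47.8%). The shares of all genes include the dimmest 40%, where only Hdac8 and Tet3 of the set lie.

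The rise and fall of Uhrf1, Dnmt1, Ezh2 and Hdac7 went with that of the cell cycle genes. In neurospheres against tissue, however, Dnmt1 did not pass (0.36, and -0.07 and -0.23 on its further probe sets). All 24 genes of a cell cycle list rose in both cultures against tissue, with a median difference of 3.50 in cultured cells and 2.42 in neurospheres, and 21 of the 24 fell from cultured cells to neurospheres (median -1.41). Their median signal was 6.28, 5.81 and 6.02 on the tissue arrays, 10.67, 10.86 and 10.62 on the cultured cell arrays, and 9.42, 8.82 and 9.14 on the neurosphere arrays. The tissue medians lay below 6.48, as did the tissue means of 13 of the 24 genes. Differences from tissue are therefore those of the signals. Mki67, a marker of dividing cells, rose by 6.84 (log2) from tissue to cultured cells and fell by 2.03 from there to neurospheres. The part of cell division in the changes of the chromatin genes was not tested.

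**Figure D4:**
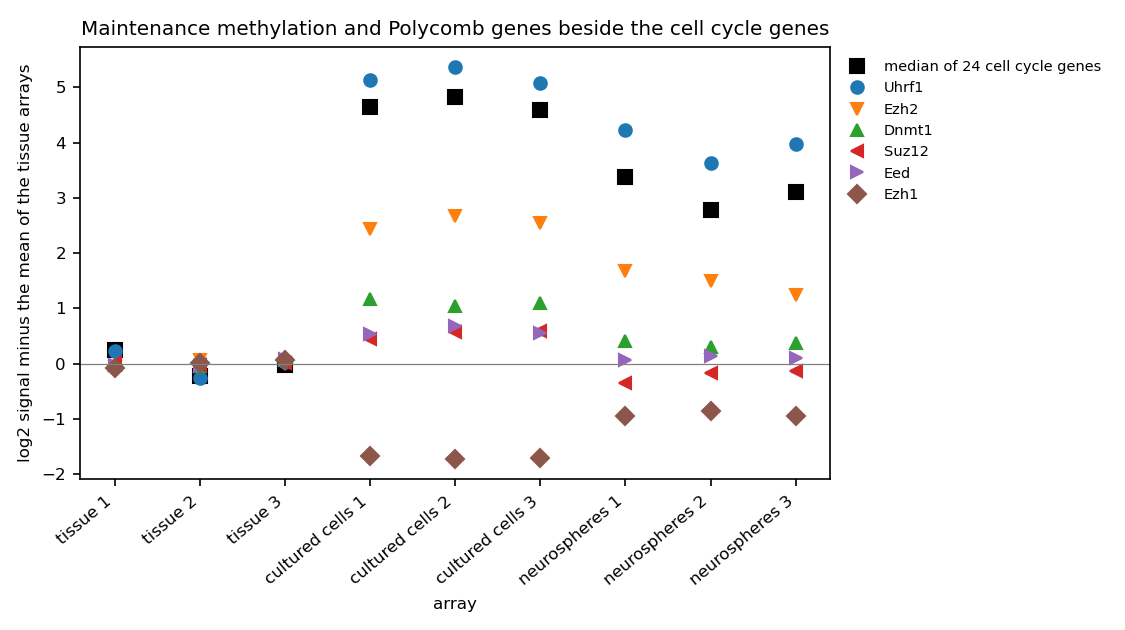
Log2 signal minus the mean of the 3 tissue arrays, for the median of 24 cell cycle genes (squares) and for 6 chromatin genes, on each of the 9 arrays. Uhrf1, Ezh2 and Dnmt1 are highest on the cultured cell arrays and lower on the neurosphere arrays, as the squares are, and Ezh1 is lowest on the cultured cell arrays.

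The partners of these enzymes were examined in 5 lists. Beside their counts stand the shares of all genes, of which 20.4% rose and 22.0% fell in cultured cells against tissue. In neurospheres 21.7% rose and 21.0% fell against tissue, and 9.0% rose and 8.91% fell against cultured cells. Of 22 partners in HDAC corepressor complexes, such as SIN3, NuRD and CoREST, 8 rose and 2 fell in cultured cells and 5 rose in neurospheres against tissue. Between the cultures 0 passed by limma or by the methods' t-test, and at an unadjusted limma p under 0.05 with no fold limit 2 were higher and 10 lower in neurospheres. The largest rises were those of Sin3b, a scaffold of the SIN3 complex (1.84 in cultured cells and 1.92 in neurospheres), and of Mta3 (1.93 and 1.54) and Mta2 (1.04 and 1.34), subunits of NuRD. Their medians of 0.26 and 0.15 compare with -0.01 and 0.05 over all genes.

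Of 25 other acetyltransferases and their partners, 7 rose and 3 fell in cultured cells, 5 rose and 4 fell in neurospheres against tissue, and 2 fell between the cultures. The falls were led by the steroid receptor coactivators Ncoa1 (-2.16 and -2.35) and Ncoa3 (-1.33 and -1.69), and in neurospheres Ncoa2 (-1.44). Hat1, which acetylates newly made histone H4, rose by 1.69 in cultured cells (adjusted p = 4.54e-07) and fell from there to neurospheres (-0.75, adjusted p = 0.00291). Of 5 bromodomain genes, whose proteins bind acetylated lysine, Brd7 (0.81 and 0.99) and Brd8 (0.80 and 0.60) rose in both cultures.

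Of 21 other Polycomb genes and H3K27 demethylases, 5 rose and 3 fell in cultured cells, 4 rose and 4 fell in neurospheres against tissue, and 1 rose and 1 fell between the cultures. Cbx7, a chromodomain reader of H3K27 methylation in Polycomb complex 1, fell the most, by 2.12 in cultured cells (adjusted p = 2.64e-08) and by 2.55 in neurospheres (adjusted p = 2.44e-08). The neurosphere mean of Cbx7 (6.32) lay below 6.48. Rnf2, the ubiquitin ligase of Polycomb complex 1, rose (1.22 and 1.27). Pcgf5, a relative of Bmi1, rose in cultured cells (1.58) and fell from there to neurospheres (-1.05), and Phc2 rose between them (0.79).

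Of 15 readers of methylated DNA and partners of methylation and demethylation, 8 rose and 1 fell in each culture against tissue, with medians of 0.85 and 0.67, and 2 rose and 2 fell between the cultures. Hells, a remodeller that aids DNA methylation, rose by 3.10 in cultured cells (adjusted p = 4.71e-08) and by 1.65 in neurospheres (adjusted p = 4.21e-05) and fell between them (-1.45), the order also seen for Uhrf1. Mbd3, the methyl-binding family member of NuRD, rose by 2.66 and 2.63 from a tissue mean of 6.31, which lay below 6.48. Gadd45a, a stress protein tied to active demethylation, was the main gene of the list to differ between the cultures, at 10.996 ± 0.31 (SD, n = 3) in neurospheres, 8.05 ± 0.47 in cultured cells and 8.10 ± 0.21 in tissue, and Gadd45b fell from cultured cells to neurospheres (-1.11). Dnmt3l, a cofactor of the de novo methyltransferases, rose in both cultures (1.28 and 2.43) from a tissue mean of 4.60, a dim value.

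Markers of the other cells of the nerve were called in all 3 comparisons. Over all genes 20.4% rose and 22.0% fell in cultured cells, and 21.7% rose and 21.0% fell in neurospheres, against tissue. Between the cultures 9.0% rose and 8.91% fell, and counts of 1 marker of a list there lie close to these shares. Of 12 spiral ganglion neuron markers 11 fell in each culture, and their summed signal ran from 16.11 to 16.25 (log2 of the sum) in tissue, 9.92 to 10.21 in cultured cells and 9.79 to 10.08 in neurospheres, where 9 of the 12 lay below 6.48, the level that separates the dimmest 40% of genes. Of 7 myelinating Schwann cell markers 6 fell in each (15.42 to 15.49, 11.63 to 11.89 and 11.44 to 11.55). Of 8 oligodendrocyte markers 7 fell in each (12.34 to 12.47, 8.64 to 9.28 and 8.57 to 8.75), and of 8 macrophage markers 6 fell in each (11.86 to 12.18, 8.85 to 9.34 and 8.41 to 9.05). Of 10 fibroblast markers 7 rose and 1 fell in cultured cells and 9 rose in neurospheres (14.64 to 14.82, 16.14 to 16.29 and 16.37 to 16.39). Of 6 astrocyte markers 5 fell in cultured cells and 4 in neurospheres (13.49 to 13.73, 11.80 to 12.40 and 12.60 to 12.70). Of 7 endothelial markers 4 and 5 fell and 1 and 2 rose, and their sum was higher in both cultures (11.57 to 11.68, 12.17 to 12.35 and 11.89 to 12.48). Of 7 smooth muscle markers 4 rose and 2 fell in cultured cells and 1 rose and 3 fell in neurospheres (12.86 to 13.27, 14.17 to 14.45 and 12.96 to 13.21). Of 7 markers of cochlear epithelium and bone, which can cling to dissected nerve, 5 fell and 1 rose in cultured cells and 6 fell in neurospheres. From cultured cells to neurospheres 3 fibroblast markers rose and 3 fell (differences of the 10 from -3.69 to 2.41), 2 neuron markers rose and 3 fell (-2.60 to 3.06), 1 smooth muscle marker rose and 3 fell (-4.93 to 0.90), and 2 astrocyte markers rose and 1 fell. In the same comparison 2 endothelial and 2 macrophage markers fell, 1 oligodendrocyte marker rose, 1 myelinating Schwann cell marker rose and 1 fell, and 1 cochlear or bone marker rose and 3 fell. The part of these in the calls between the cultures was not tested. Both cultures labelled as nerve-derived were thus lower than tissue in most neuron and glial markers and higher in most fibroblast markers. The part of this shift in the falls of Hdac11, Sirt2 and Sirt3 and in the rises of the other chromatin genes was not tested.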

How the data were processed

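Gene expression was measured in 3 samples each of auditory nerve tissue, cultured cells and neurospheres on Affymetrix mouse genome arrays. The deposited values are log2 signals that the authors computed with RMA. Per the labels the program was Affymetrix Expression Console, MAS5 is also named, and versions are not given. The table was used as deposited, with no filter on low values and no detection calls. Of 45037 probe sets without controls, 34945 named 1 gene, and each of 18193 genes was represented by the one with the highest mean. Symbols came from the array's annotation, and 204 not found in the RefSeq table were kept as given.

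For each pair of groups, limma 3.58.1 (R 4.3.3) was fitted to the 6 arrays concerned with lmFit and eBayes, and 2-sided p-values were used. It took the place of the Student's test that the study names, since 3 arrays estimate a spread poorly. The threshold was an adjusted p under 0.05, by the Benjamini-Hochberg method across the 18193 genes, together with a difference over 1.5-fold. Every probe set was tested in the same way. Values on each array are given for genes that passed with a log2 difference of 1 or more and for fixed pairs of paralogs, all probe sets for genes with opposite calls, and up to 4 genes per partner list and comparison. Hdac4, Hdac8, Sirt7, Kat6a, Eed and Suz12 were added after their values were seen, and the choice among several promoter windows was also made then. The genes and lists were chosen with earlier results of these data known.

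In simulated data, the fit of neurospheres to tissue detected 80% of genes shifted by 1 (log2), that of cultured cells to tissue 90%, and that between the cultures 94%. False positives were 3.78%, 1.55% and 2.05% of the calls in these fits, each run on 18193 genes. The noise was normal and independent, and only 100 genes were shifted by 1 and 100 by 2 (log2). In the data 3945 genes rose and 3817 fell in neurospheres against tissue, so the simulated rates need not hold there. Arrays of a group correlated at 0.993 to 0.997 over genes, with under 0.1% identical values. Precision was limited by the number of arrays. Alternatives covered scaling, choice of probe set, a filter on the dimmest 40% of genes, a fit of all 9 arrays, the prior, the test, the fold limit, a block for the replicate number, and omission of single arrays.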

Additional observations from a re-analysis of the deposited data

How the results depend on the processing

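The counts of genes that passed held within 1.5 times, except as follows. With a fold change over 2, they fell to 3 up and 5 down in neurospheres against tissue, 5 down in cultured cells against tissue, and 1 up and 4 down in neurospheres against cultured cells. With no fold limit, 14 rose in cultured cells against tissue, and 9 rose and 11 fell in neurospheres against cultured cells. Counting genes with at least 1 probe set called gave 13 up in neurospheres and 15 up in cultured cells against tissue. Leaving out each array in turn gave 6 to 8 up and 8 to 11 down in neurospheres against tissue, 5 to 7 and 10 to 11 in cultured cells against tissue, and 3 to 5 and 7 to 8 between the cultures. Without probe sets whose names end in _s_at, _x_at or _a_at, which left 31 genes, Kat2b reversed to 2.10 in neurospheres and 1.67 in cultured cells. Suz12 reversed to 1.39 in neurospheres, and Ezh1 lost its rise between the cultures (0.07, adjusted p = 0.64). That Ezh1 value came from 1429629_at, a dim probe set at 3.25 in cultured cells and 3.32 in neurospheres. With the mean of a gene's probe sets, Kat2b reversed to 0.0057 (adjusted p = 0.959) and Eed to -0.0376 (adjusted p = 0.77) in cultured cells, and Ezh1 (0.36) and Suz12 (-0.45) were no longer called between the cultures. That mean also gave calls upward in cultured cells against tissue for Kat2a (0.91), Kat5 (0.89), Crebbp (0.67) and Suz12 (0.82), and ended those of Kat6a (-0.0014) and Sirt5 (-0.42) there and of Kat6a (-0.28), Sirt5 (-0.50) and Dnmt3a (-0.43) in neurospheres. These settings change which probe set stands for a gene. Quantile normalization moved the median of all genes in cultured cells against tissue from -0.01 to 0.11, and the split of all calls from 3707 up and 4011 down to 4256 and 3659. It added calls of Hdac4 (0.65), Hdac8 (0.70) and Kat5 (0.60) in that comparison and ended those of Eed (0.56) and Sirt6 (-0.26), and in neurospheres it added Crebbp (-0.62) against tissue and ended Kat5 (0.55) against cultured cells. Centring on the more highly expressed genes added Hdac9 (-0.60) and Crebbp (-0.67) and ended Hdac4 and Hdac6 (0.51 each) in neurospheres against tissue, and ended Eed (0.51) in cultured cells and Kat5 (0.58) between the cultures. Deviations of same-numbered samples from their group means correlated at -0.19 to 0.21. With 3 arrays per group this cannot show whether the numbers pair the samples. The replicate block left the counts at 8 and 9, 6 and 11, and 4 and 7, with every call as before. The methods' t-test after Benjamini-Hochberg adjustment lost only Kat5 between the cultures (adjusted p = 0.0501). No signal over background is given, so low values such as those of Hdac8, Tet3 and, in tissue, Uhrf1 have no stated detection limit.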
